A study of Mus musculus with 384 samples.

Results

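Levels of 7 genes of ectodysplasin and parathyroid hormone-related protein (PTHrP) signalling were followed in mouse mammary cells: the ligand genes Eda and Pthlh, the receptor genes Edar, Eda2r, Tnfrsf19 and Pth1r, and the adaptor gene Edaradd. They were chosen by name as ligands, receptors and adaptor of mammary bud formation and are 7 of the 49585 genes in the count table. Ectodysplasin, the product of Eda, is a ligand of the tumour necrosis factor family that is made in splice forms with different receptors. One form binds EDAR, which signals through the adaptor EDARADD to NF-kB, and the other binds EDA2R. TNFRSF19, also called TROY, is a related receptor. This pathway acts in the placodes from which hair, teeth and mammary glands form. PTHrP, the product of Pthlh, is secreted by the epithelium of the embryonic mammary bud and acts on its receptor PTH1R in the mesenchyme around the bud, which it directs towards a mammary fate.

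Cells were sorted by flow cytometry into 1 plate of 384 wells, and messenger RNA of each well was sequenced with a Smart-seq2 method. The embryonic gate took CD49f-high, Lgr5-reporter-high cells. Their source was whole skin with its mammary buds, dissected from female embryos at E14 (day 14 of embryonic life). These embryos carried the allele Lgr5-EGFP-IRES-CreER, in which EGFP marks cells that use the Lgr5 promoter. The adult gates took CD24+CD29Hi (basal) and CD24+CD29Lo (luminal) cells from mammary glands of Rosa-tdTomato mice. Cells with CD45, CD31 or CD140a on their surface were excluded in the embryonic and the adult sorts. Age, allele and tissue therefore differ together between the embryonic and the adult gates and cannot be told apart. The labels name no animal or litter and give no adult age, so each gate was treated as 1 sample, no test between gates was possible, and the intervals given (95%) cover counting error only.

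Single cells with at least 50000 reads on genes were kept, 347 of 376 in all, which left out 10 embryonic, 10 basal and 9 luminal wells. The embryonic and basal gates together had 235 kept cells, the embryonic and luminal gates 239 and the adult gates 220. Their median depth was 697578 reads in the embryonic gate, 450196.5 in the basal gate and 525176 in the luminal gate. One further well per gate held 50 cells, with 532820 to 621792 reads. In the 4 empty control wells the depth was 34 to 563 reads, none from the 7 genes. By rank correlation over 10315 genes, most cells were nearest to the 50-cell well of their own gate, apart from 1 embryonic, 10 basal and 3 luminal cells. Of the 10 basal cells, 8 were nearest to the luminal well and 2 to the embryonic well. Of the 3 luminal cells, 2 were nearest to the embryonic well. Lgr5 stood at 549.9 CPM, the usual scaling of a gene's reads by all reads on genes, in the embryonic gate, 207.0 in the basal gate and 38.3 in the luminal gate, and Krt14, a basal keratin, at 1009, 2193 and 36.6 CPM. In the 50-cell wells the order of Lgr5 between the embryonic (297.5 CPM) and basal (362.1 CPM) gates was the opposite, with overlapping counting intervals. Krt8, a luminal keratin, stood at 357, 912 and 4694 CPM. The hair placode gene Shh had 0 reads in the embryonic gate, and Dkk4 and Lhx2 stood at 0.345 and 0.389 CPM there. Bmp2 and Edar, of the same list, stood at 25.1 and 52.02 CPM, so 1 of the 7 genes is itself a hair placode marker. The basal gate held 316 CPM of 5 endothelial markers in sum, against 8.74 in the embryonic and 11.2 in the luminal gate. The embryonic gate also held fibroblast marker transcripts, among them Pdgfra, which encodes CD140a, at 54.8 CPM. These are set beside each result they touch.

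The sequences before the start sites are shown because 4 of these genes have distinct patterns below: Pthlh and Edaradd were read in most embryonic cells, Edar in fewer, and most Pth1r reads lay in cells with fibroblast markers. They come from RefSeq on build GRCm38.p6, which matched 7 of 7 genes by symbol. Each is written 5′ to 3′ on the minus strand and ends where transcription starts, except that of Pthlh, cut to the 80 bases that lie outside the gene as GENCODE M21 places it. Capitals mark matches to any of 6 motifs on either strand. The Pthlh stretch is chr6:147264184-147264263, that of Edar chr10:58675697-58675946, that of Edaradd chr13:12520451-12520700 and the outermost of 3 for Pth1r chr9:110747146-110747395.
Pthlh: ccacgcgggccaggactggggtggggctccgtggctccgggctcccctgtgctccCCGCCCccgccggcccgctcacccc
Edar: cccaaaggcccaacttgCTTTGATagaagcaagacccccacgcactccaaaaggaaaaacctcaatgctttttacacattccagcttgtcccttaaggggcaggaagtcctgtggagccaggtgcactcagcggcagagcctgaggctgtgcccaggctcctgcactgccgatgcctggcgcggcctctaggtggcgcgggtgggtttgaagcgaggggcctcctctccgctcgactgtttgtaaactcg
Edaradd: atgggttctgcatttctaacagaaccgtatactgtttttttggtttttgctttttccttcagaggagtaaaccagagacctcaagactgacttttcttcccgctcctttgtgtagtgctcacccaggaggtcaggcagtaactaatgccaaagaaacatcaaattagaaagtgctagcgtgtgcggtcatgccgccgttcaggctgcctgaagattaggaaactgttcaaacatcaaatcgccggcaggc
Pth1r: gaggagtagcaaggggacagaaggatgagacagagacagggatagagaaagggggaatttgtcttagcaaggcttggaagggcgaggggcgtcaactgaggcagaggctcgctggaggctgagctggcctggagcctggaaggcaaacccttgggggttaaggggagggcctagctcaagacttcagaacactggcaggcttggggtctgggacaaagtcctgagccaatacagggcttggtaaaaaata

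The motifs searched were the TATA box TATAAA, the LEF/TCF motif CTTTGNT, the kappaB motif, the GC box GGGCGG, the AP-1 motif TGANTCA and the cyclic AMP response element TGACGTCA. In the 250 bases before each of 32851 RefSeq start sites, they were found in 12.4%, 16%, 4.6%, 32.7%, 6.7% and 1.5% of windows. The whole Pthlh window held 4 GC boxes, 1 of them in the printed stretch, with 75.2% GC and 26 CpG, against medians of 52.4% GC and 6 CpG over all windows. Edar's window held 1 LEF/TCF match, 233 to 227 bases before the start, and no other match. Edaradd's window and the outermost Pth1r window held none of the 6 motifs. The other 2 Pth1r windows held 1 and 4 GC boxes, and 1 Tnfrsf19 window held 1 LEF/TCF match and 3 GC boxes. The Eda window held 6 GC boxes, and the Eda2r window held 1 TATA box, 1 kappaB match and 1 GC box. A match is a description of these letters and not a binding site, and a missing match says nothing of the factor.

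Pthlh was the most abundant of the 7 genes per kilobase of exon in the embryonic and basal gates. The gene lies on chromosome 6 from 147252101 to 147264183 on the minus strand of GRCm38. Embryonic cells ranged from 0 to 1920 CPM with a median of 168 CPM, and 84.3% of cells had a read. In basal cells the range was 0 to 1303 CPM with a median of 0, and 11 cells (10.2%) had a read. Luminal cells ranged from 0 to 639 CPM with a median of 0, and 5 cells (4.46%) had a read. The ranges overlap, but most adult cells had no read and most embryonic cells had many. Summed over cells, the embryonic level was 366 CPM (362 to 369.6). Basal cells summed to 26.9 CPM (25.5 to 28.3) and luminal cells to 1.95 CPM (1.63 to 2.31).

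Eda, the other ligand gene, was low and sparse. It spans 99975606 to 100400762 on chromosome X, plus strand, and counts per gene cannot separate its splice forms. A read was found in 20 embryonic cells (15.7%), and embryonic cells ranged from 0 to 165.7 CPM with a median of 0. Of the basal cells 2 had a read (highest 263 CPM), as had 3 luminal cells (highest 20.1 CPM). The summed levels were 12.2 CPM in the embryonic gate (11.5 to 12.95), 3.37 in the basal gate and 0.146 in the luminal gate. The basal level came almost wholly from 1 cell, which held 183 of 184 reads. Without it the basal level was 0.0186 CPM.

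Edar, the ectodysplasin receptor gene, is on chromosome 10 from 58600789 to 58675654, minus strand. Embryonic cells ranged from 0 to 835 CPM with a median of 0, and 54 (42.5%) had a read. In the basal gate 7 cells (6.48%) had a read, with a highest value of 102.1 CPM, and in the luminal gate 4 (3.57%), with a highest value of 140.0 CPM. Its summed level was 52.02 CPM in the embryonic gate (50.5 to 53.5), 1.23 in the basal gate and 1.77 in the luminal gate. The receptor was thus seen in fewer embryonic cells than its adaptor or Pthlh.

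Edaradd, the gene of the death-domain adaptor that couples EDAR to NF-kB, lies on chromosome 13 from 12472632 to 12520438, minus strand. Embryonic cells ranged from 0 to 2026 CPM with a median of 15.1 CPM, and 82 (64.6%) had a read. In the basal gate 10 cells had a read (highest 301 CPM) and in the luminal gate 2 (highest 115.6 CPM). The summed levels were 146.5 CPM (144 to 149), 6.93 CPM and 0.366 CPM in the embryonic, basal and luminal gates. One basal cell, the same well that held the Eda reads, carried 210 of 378 basal Edaradd reads, and without it the basal level was 3.12 CPM.

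Tnfrsf19, on chromosome 14 from 60963875 to 61046490, minus strand, was read in 88 embryonic cells (69.3%). The gate's cells ranged from 0 to 1015 CPM with a median of 39.6 CPM, and the summed level was 151 CPM (148 to 153). Only 1 basal cell had a read, with 4 reads and 6.52 CPM, and it was a cell nearest to the embryonic 50-cell well. In the luminal gate 5 cells had a read (highest 99.2 CPM), and 1 of them held 89 of 95 reads. The adult gates stood at 0.0733 CPM (basal) and 1.39 CPM (luminal).

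Eda2r, the gene of the second ectodysplasin receptor, was the least detected in the embryonic and basal gates. It lies on chromosome X from 97333840 to 97377216, minus strand. A read was found in 6 embryonic cells (highest 39.1 CPM), in 0 basal cells, where 3 counts of the total would be a share of 2.78% of cells with a read, and in 1 luminal cell, with 75 reads and 145.5 CPM. The summed levels were 0.511 CPM (embryonic), 0 (basal, with an upper limit of 0.0676) and 1.097 CPM (luminal). The 50-cell wells gave 0, 13.3 and 5.63 CPM from 0, 8 and 3 reads, so the basal 50-cell well held Eda2r reads that no single basal cell did.

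Pth1r, the gene of the PTHrP receptor, lies on chromosome 9 from 110722085 to 110747145, minus strand, and shares exonic sequence with the antisense gene Myl3. Strand use in the authors' counting is not given in the sources used here. Myl3 stood at 1.07 CPM in the embryonic gate and had 0 reads in both adult gates. Embryonic cells ranged from 0 to 693 CPM of Pth1r with a median of 0, and 34 (26.8%) had a read. In the basal gate 3 cells had a read (highest 165.6 CPM) and in the luminal gate 2 (highest 43.5 CPM). The summed levels were 48.7 CPM (47.3 to 50.2), 1.63 CPM and 0.746 CPM.

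**Figure D1:**
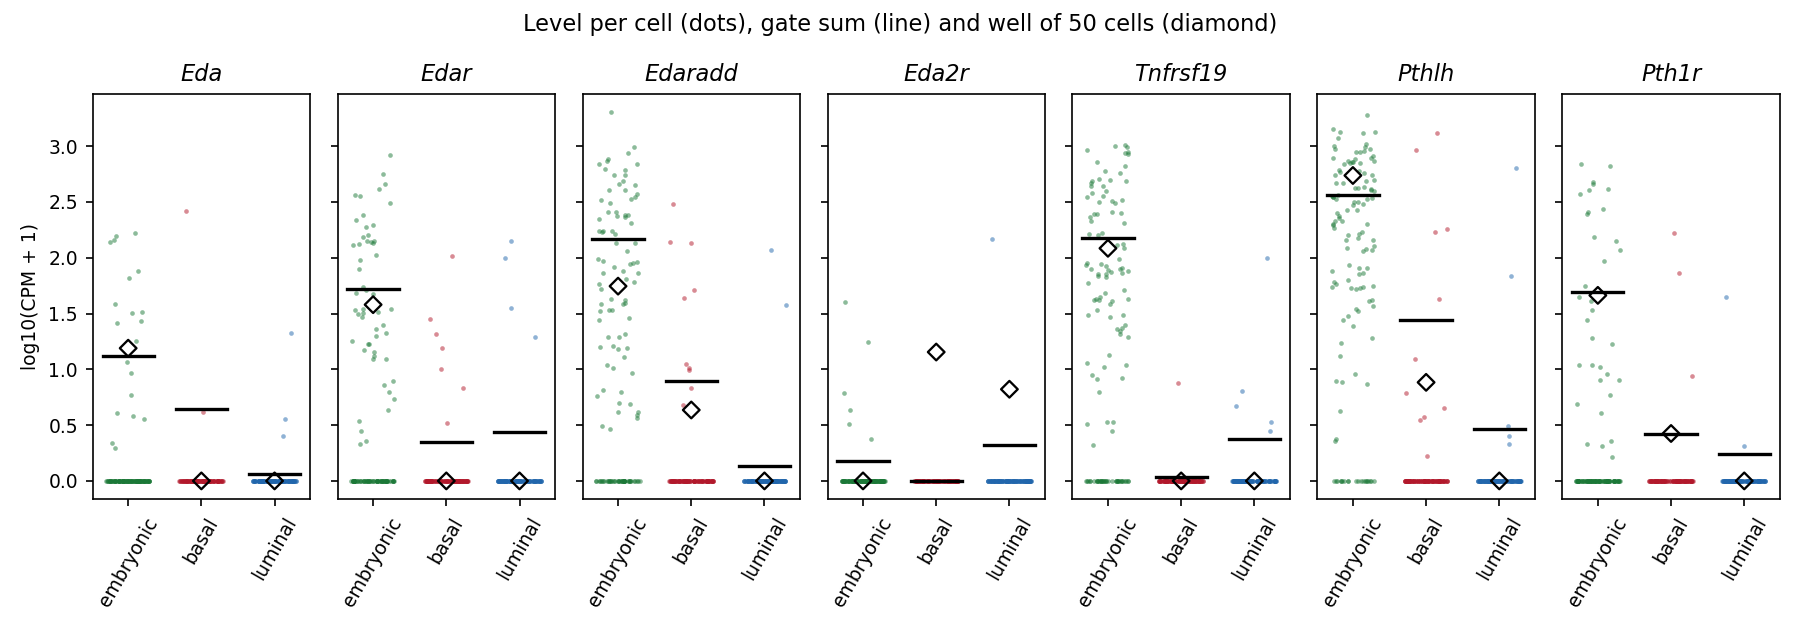
Level of each gene in single cells (dots, log10 of CPM + 1), in the summed cells of the gate (line) and in the well of 50 cells (diamond), by gate. Pthlh has a median of 168 CPM in the embryonic cells, and each of the 7 genes has a median of 0 in the basal and in the luminal cells.

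To compare genes with each other, the summed levels were divided by exon length in kilobases. In the embryonic gate Pthlh stood at 226 CPM per kilobase, followed by Tnfrsf19 at 31.8, Edaradd at 21.97, Pth1r at 16.7, Edar at 14.3, Eda at 1.79 and Eda2r at 0.0868. The embryonic 50-cell well gave 337 CPM per kilobase for Pthlh, 25.5 for Tnfrsf19, 15.4 for Pth1r, 10.2 for Edar, 8.20 for Edaradd, 2.12 for Eda and 0 for Eda2r. Pthlh led and Eda and Eda2r came last in both. The order of the middle genes was not held: in the 50-cell well the counting intervals of Pth1r (10.2 to 22.3 CPM per kilobase), Edar (6.45 to 15.3) and Edaradd (5.68 to 11.5) overlap. Tnfrsf19 and Pth1r also overlap there (20.02 to 31.9 against 10.2 to 22.3).

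Depth differed between the gates, so the share of cells with a read was also counted after each cell was thinned to 50000 reads. In the embryonic gate 79.5% of cells kept a Pthlh read (71.5 to 86.2), 58.3% a Tnfrsf19 read (49.2 to 67) and 50.4% an Edaradd read (41.4 to 59.4). Edar was kept in 31.5% (23.5 to 40.3), Pth1r in 18.1% (11.8 to 25.9), Eda in 9.45% (4.98 to 15.9) and Eda2r in 1.57% (0.191 to 5.57). In the adult gates the highest share was 6.48%, for Edaradd in basal cells. Requiring 5 of 50000 reads, which is 100 CPM, left Pthlh in 59.8% of embryonic cells, Tnfrsf19 in 36.2%, Edaradd in 28.3%, Edar in 15%, Pth1r in 11.8%, Eda in 3.94% and Eda2r in 0. The difference between embryonic and adult cells in Pthlh, Tnfrsf19, Edaradd and Edar was thus also present at equal depth.

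**Figure D2:**
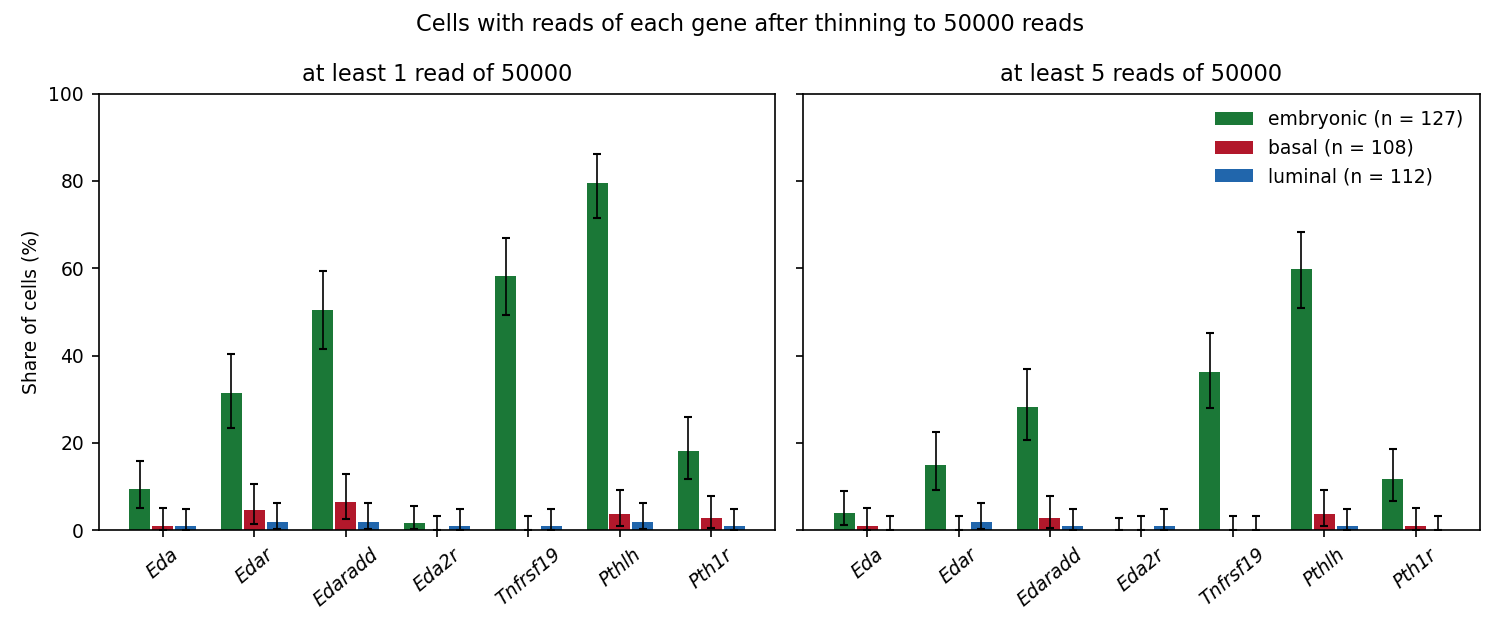
Share of cells (%) in which each gene had at least 1 read (left) or at least 5 reads (right) after each cell was thinned to 50000 reads, by gate, with exact 95% binomial intervals. Pthlh reaches 79.5% of embryonic cells at 1 read, and no gene passes 6.48% in an adult gate.

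Against adult basal cells, the embryonic gate was at least 2-fold higher in 6 of the 6 genes measured, where 33.8% of 12808 measured genes were higher and 19.4% lower. A gene counted as measured if 1 of the gates compared had 5 CPM or more, and Eda2r did not. Eda, Edar, Tnfrsf19 and Pth1r were under 5 CPM in the basal gate. They were measured through the embryonic gate alone and could not have been called lower. These fold changes are ratios of CPM. Tnfrsf19 was 2056-fold higher (803 to 7546, with 4 basal reads), Edar 42.4-fold (33.3 to 54.7), Pth1r 29.9-fold (24.2 to 37.3) and Edaradd 21.1-fold (19.1 to 23.5). Pthlh was 13.6-fold higher (12.9 to 14.4) and Eda 3.62-fold (3.09 to 4.26). On the log2 scale with 1 CPM added, the 6 ratios ran from 1.59 (Eda) to 7.14 (Tnfrsf19), against a median of 0.38 over all measured genes.

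Several of these sizes turned on few cells. Without the top cell of each gate for each gene, the log2 ratio of Eda went from 1.59 to 3.36, that of Edaradd from 4.22 to 5.07 and that of Pthlh from 3.72 to 4.85. In the 5 plate rows that held both gates (25 embryonic and 66 basal cells), Eda was no longer past 2-fold, at 0.74, while the other 5 ratios ran from 2.96 to 6.30.

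Against adult luminal cells, the embryonic gate was again at least 2-fold higher in 6 of 6 genes measured, where 39.3% of 12679 measured genes were higher and 17.6% lower. None of the 7 genes reached 5 CPM in the luminal gate, where the highest, Pthlh, stood at 1.95 CPM. Each was thus measured through the embryonic gate alone, so the direction of this count was set by the minimum level. Edaradd was 400.5-fold higher (271 to 619), Pthlh 188-fold (158.5 to 224.5), Tnfrsf19 108.5-fold (88.7 to 134.2) and Eda 83.5-fold (45.2 to 174.5). Pth1r was 65.3-fold higher (49.6 to 87.8) and Edar 29.4-fold (24.5 to 35.5). Single cells set most of these luminal levels: 1 cell held 89 of 95 Tnfrsf19 reads, 1 held 50 of 51 Pth1r reads, 1 held 19 of 25 Edaradd reads and 1 held 8 of 10 Eda reads. Without the top cell of each gate, the log2 ratio to luminal cells went from 5.99 to 7.03 for Tnfrsf19, from 4.83 to 5.29 for Pth1r, from 6.75 to 6.99 for Edaradd and from 3.53 to 3.35 for Eda. The luminal level of Pthlh came mostly from cells unlike their gate: 78.9% of its reads lay in 1 of the 2 luminal cells nearest to the embryonic 50-cell well, and luminal cells nearest to their own well held 3 Pthlh reads in all. Without cells nearest to another gate, the log2 ratio of Pthlh rose from 6.96 to 8.46. Both comparisons use the same embryonic cells.

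The wells of 50 cells gave a second reading of each gate from pooled cells, in which fewer cells expressing a gene and less RNA per cell cannot be told apart. Pthlh had 339 reads in the embryonic well (545 CPM), 4 in the basal well (6.65 CPM) and 0 in the luminal well. Tnfrsf19 had 75 embryonic reads (120.6 CPM), Edaradd 34 (54.7 CPM), Pth1r 28 (45.03 CPM), Edar 23 (36.99 CPM) and Eda 9 (14.5 CPM). In the basal well Edaradd had 2 reads, Pth1r 1 read and Tnfrsf19, Edar and Eda 0. The luminal well had 0 reads of these 6 genes.

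From these reads the embryonic well exceeded the basal well 82.05-fold for Pthlh (31.8 to 303), for Pth1r 27.1-fold (4.48 to 1108) and for Edaradd 16.5-fold (4.22 to 141). Set against the floor of 3 reads in a well without any, Tnfrsf19 was 24.2-fold higher, Edar 7.42-fold and Eda 2.90-fold. The lower limits of these 3 ratios by counting error were 19.2, 5.565 and 1.911, so that of Eda was under 2-fold. Past 2-fold, 6 of 7 genes were higher and 1, Eda2r, was lower in the embryonic well, where 37.6% of 10944 genes were higher and 30.5% lower. Against the luminal well the counts were again 6 and 1, beside 44.1% and 22.2% of 10829 genes. The 6 stood against 0 luminal reads. The 1, Eda2r, had 0 embryonic and 3 luminal reads, which is at the floor. Edaradd was lower in the embryonic 50-cell well, at 54.7 CPM (37.9 to 76.4), than in the summed embryonic cells, at 146.5 CPM.

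**Figure D3:**
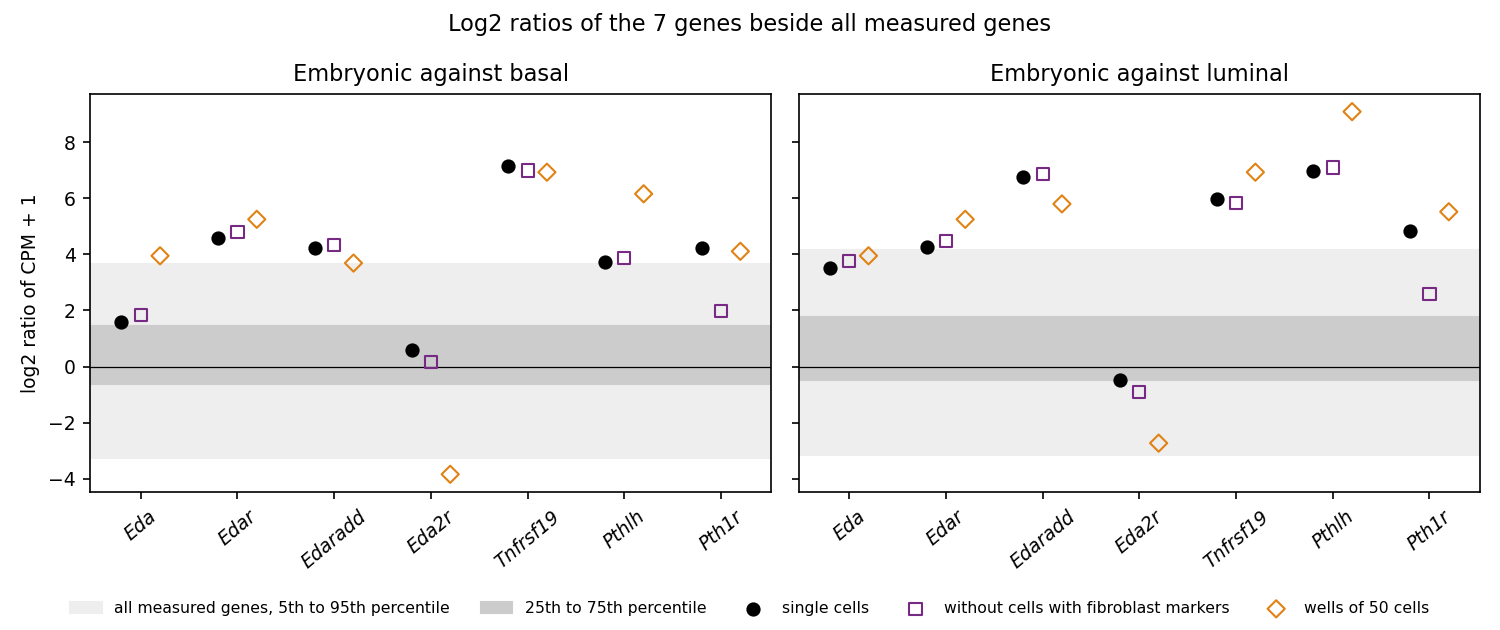
Log2 ratio of CPM + 1 between the embryonic and the basal (left) or luminal (right) gate for each gene, from single cells, from single cells without the 22 embryonic cells with fibroblast markers, and from the wells of 50 cells, over grey bands for all measured genes. Apart from Eda2r the genes lie above 0 in each reading, and the Pth1r ratio falls from 4.24 to 1.99 (basal) and from 4.83 to 2.59 (luminal) without those cells.

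Between the adult gates, 2 genes were measured, and both were at least 2-fold higher in basal cells, beside 28.3% of 11885 genes higher and 21.3% lower. Both passed 5 CPM in the basal gate alone, so the minimum level allowed no lower call. With no minimum level 3 genes were higher and 2 lower, beside 20.6% and 17.1% of 20881 genes. Edaradd was 18.9-fold higher (12.6 to 29.6) and Pthlh 13.8-fold (11.6 to 16.6). Of 1466 basal Pthlh reads, 862 lay in 1 cell, and without it the basal level was 11.2 CPM. Without its top basal cell, Edaradd was under 5 CPM in both gates and no longer measured. In the 3 plate rows that held both gates (24 basal and 17 luminal cells), the log2 ratio of Pthlh was 0.26 against 3.24 over all cells. No read of any of the 7 genes was found in 80 basal and 94 luminal cells, against 1 embryonic cell.

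The embryonic cells were not alike. Fibroblast markers (Col1a1, Col1a2, Col3a1, Dcn, Lum, Postn, Pdgfra, Twist2) were counted in each cell at 5 of 50000 reads, and 22 cells had at least 3 of the 8. Summed over the list, embryonic cells ranged from 0 to 93936 CPM with a median of 233 CPM. In the gate sums all 8 markers were above 5 CPM in the embryonic gate (3923 CPM summed), while the basal gate had 2516 CPM, mostly of Postn (1475 CPM) and Dcn (924 CPM), and the luminal gate 75.8 CPM with Lum at 0. The mesenchyme genes Tbx18, Twist1 and Crabp1 stood at 16.2, 39.8 and 121.2 CPM in the embryonic gate, with Sox2 at 0.

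Most Pth1r reads and most Pthlh reads lay in different embryonic cells, although 23 of the 34 cells with a Pth1r read also had a Pthlh read. The 22 cells with at least 3 fibroblast markers gave 17.7% of the gate's reads but 84% of its Pth1r reads and 8.94% of its Pthlh reads. Pth1r stood at 231.5 CPM in them and at 9.48 CPM in the other embryonic cells, 24.4-fold apart (22.5 to 26.5), and at 5 of 50000 reads it was found in 54.5% (32.2 to 75.6) and 2.86% (0.593 to 8.12) of cells. Pthlh stood at 185 CPM in the marked cells and 404 CPM in the others, 2.19-fold apart in the other direction. Krt14 (510.0 and 1116 CPM) and Epcam (308 and 771 CPM), genes of epithelial cells, were likewise lower in the marked cells. The summed level of Trp63, a basal epithelial transcription factor gene, was not (247.5 and 232.6 CPM). Its median per cell was lower, at 25.9 CPM in marked and 93.4 CPM in other cells. Trp63 was read in 11 of the 22 marked cells and in 90 of the others.

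The ectodysplasin genes followed Pthlh rather than Pth1r in level, apart from Tnfrsf19 and Eda2r. Eda stood at 1.45 CPM in marked and 14.5 CPM in other cells, Edar at 12.2 and 60.6 CPM, and Edaradd at 84.4 and 159.8 CPM. Tnfrsf19 was present on both sides, at 222 CPM in marked and 135.5 CPM in other cells, with 26% of its reads in marked cells. Of 46 Eda2r reads, 38 lay in marked cells. Moving the limit to 2 markers (41 cells) or 4 markers (16 cells), chosen after seeing the data, put 87.3% or 84% of Pth1r reads, and 20.5% or 3.3% of Pthlh reads, in marked cells.

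Near the limit of 3 markers the cells were mixed: 19 cells had 2 markers and 6 cells had 3. Ranges of marker number, set after the values were seen, therefore describe the gate more closely. In the 13 cells with 6 to 8 markers, Pth1r was read in 13 cells, between 9.88 and 693 CPM with a median of 274 CPM, while Edar was read in 0, Edaradd in 1, Eda in 1 and Pthlh in 3. In the 9 cells with 3 to 5 markers, Pth1r was read in 0, Pthlh in 9, Edar in 5 and Edaradd in 4, and Krt14 and Epcam were read in 9 each. In the larger remainder with up to 2 markers, Pthlh was read in 95 cells, Edaradd in 77, Edar in 49 and Pth1r in 21. Tnfrsf19 was read in 11 of 13, 4 of 9 and 73 cells of these ranges.

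The median depth of these 3 ranges was 703560, 660523 and 723262 reads. Lgr5, the gene of the sorted reporter, was read in 9 of the 13 cells with 6 to 8 markers, in 9 of 9 and in 100 of the remaining cells. Without the 22 marked cells, the log2 ratio of Pth1r fell to 1.99 against basal cells and 2.59 against luminal cells, still past 2-fold, and 6 of 6 measured genes stayed past 2-fold, beside 33.4% (basal) and 38.5% (luminal) of measured genes higher and 20.5% and 18.1% lower. With the cells nearest to another gate left out as well, an alternative chosen after seeing the data, 6 of 6 genes were again higher in both comparisons, beside 35.8% and 38.7% of measured genes higher and 20.4% and 18.3% lower. The minimum level limits these counts as it does those over all cells.

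**Figure D4:**
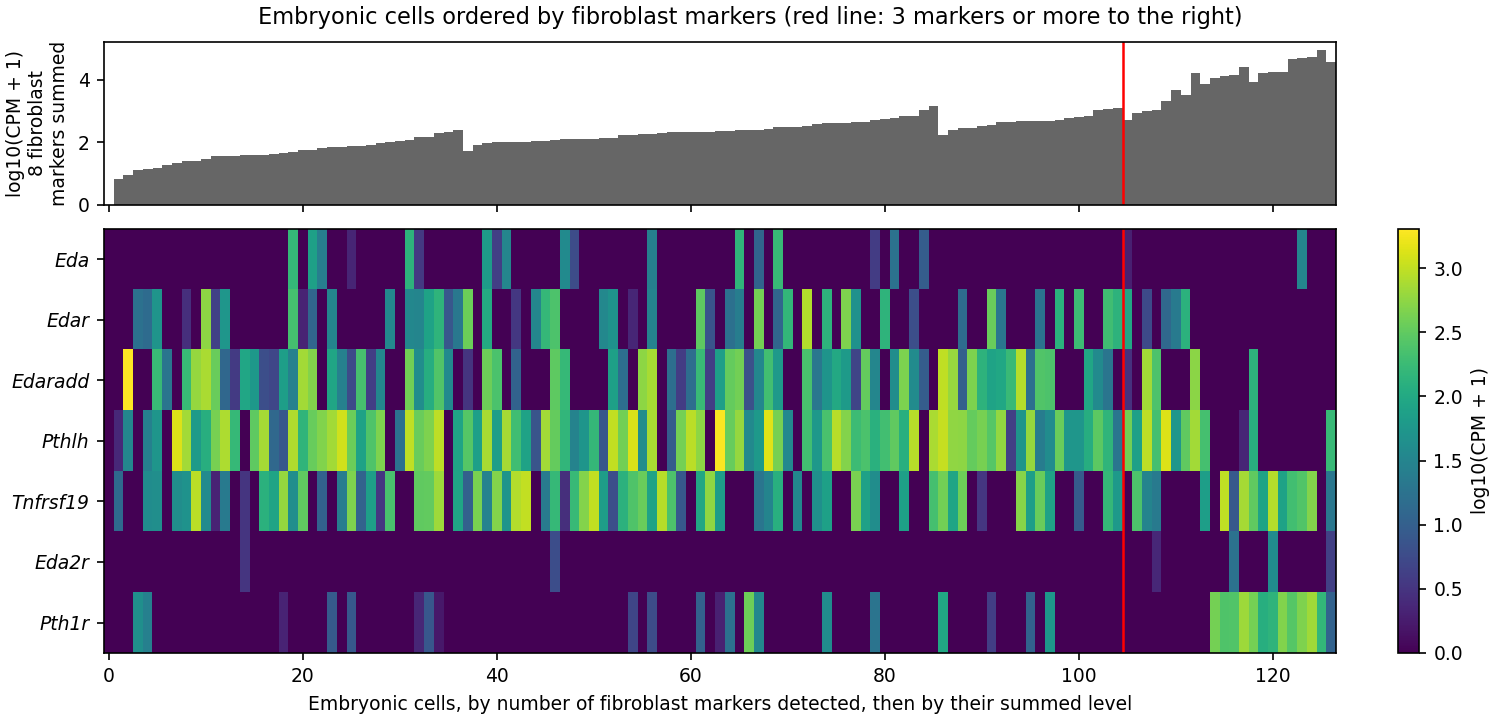
The embryonic cells ordered from left to right by the number of fibroblast markers and then by their summed level (upper panel, log10 of CPM + 1), with the level of each of the 7 genes per cell below (colour, log10 of CPM + 1). Right of the red line lie the 22 cells with at least 3 markers, and Pth1r fills the 13 rightmost cells, where Edar had 0 reads.

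Edar and Edaradd were both read in 38 embryonic cells, which is 70.4% of the 54 cells with Edar and 46.3% of the 82 with Edaradd, where 64.6% of all embryonic cells had Edaradd. Of these 38 cells, 36 also had Pthlh and 10 also had Eda, where 84.3% and 15.7% of all embryonic cells had them. Edar and Eda shared 10 cells, 50.0% of those with Eda, where 42.5% of all embryonic cells had Edar. Pth1r and Pthlh shared 23 cells, 3 of them among the 22 marked cells. Among the other embryonic cells, Pthlh exceeded Pth1r in CPM in 92 and Pth1r exceeded Pthlh in 3.

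Across cells the levels were only weakly related, as a description of sparse counts from 1 plate in which cells share library preparation and differ in depth. Over the embryonic cells Spearman's rho was 0.37 between Edaradd and Pthlh, 0.10 between Edar and Edaradd and -0.22 between Pthlh and Pth1r. In the cells with up to 2 fibroblast markers these values were 0.25, 0.04 and 0.11. With the cell's reads on genes, rho was 0.29 for Edaradd and 0.24 for Pthlh.

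Among 7395 genes with at least 20 CPM and a read in at least 20% of embryonic cells, those most like Pthlh were Sox9 (rho 0.52), a transcription factor gene of epithelial progenitors, Ptprz1 (0.49), a receptor phosphatase gene, and Krt14 (0.47). Pth1r was most like Col26a1 (0.55), a collagen gene, Heg1 (0.54) and Gas1 (0.51), which encodes a membrane protein that binds hedgehog ligands. For Edaradd these were Uchl5, Ppp2r3c and Grb7, each at 0.43. No gene reached 0.4 with Edar, Tnfrsf19 or, in luminal cells, Eda2r.

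Genes downstream of the receptors were counted in lists named by role. The counts stand beside the 33.8% of measured genes higher and 19.4% lower against basal cells, and 39.3% and 17.6% against luminal cells. Scaling by spike-ins moved the median of all genes against basal cells to 1.76, and the values it gave for 3 lists are added below. Of 19 genes that carry or restrain the ectodysplasin signal to NF-kB, 18 were measured against basal cells, with 4 higher and 1 lower. Their median log2 ratio was 0.32, near the 0.38 of all measured genes. Map3k7, the gene of the kinase TAK1, was 4.03-fold higher (186 against 46.2 CPM) and Relb, an NF-kB subunit gene, 3.89-fold lower (14.7 against 57.3 CPM). In the 50-cell wells Map3k7 stood at 127.1 and 56.5 CPM. Relb stood there at 4.83 and 1.66 CPM, in the opposite order but at or under the floor of 3 reads. Nfkbia, the gene of an NF-kB inhibitor, stood at 345 and 285 CPM, Tab2 at 169.9 and 108.7 CPM and Nfkb1 at 105.7 and 131.1 CPM. The list median turned to -0.01 with median-of-ratios scaling, -0.00 with TMM and -0.15 in the 50-cell wells. With spike-ins it was 1.65, with 13 genes higher and 0 lower.

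Against luminal cells, 19 of 19 were measured, and 2 were higher and 10 lower, with a median of -1.08. Nfkbia was 3.91-fold lower in the embryonic gate (345 against 1348 CPM), Rela 3.51-fold (85.7 against 300.5 CPM) and Nfkb1 3.47-fold (105.7 against 367 CPM), while Traf3 was 5.52-fold higher (88.7 against 16.1 CPM) and Map3k7 3.15-fold. In the 50-cell wells Traf3 stood at 43.4 and 45.04 CPM, while the other genes named here kept their direction. The median stayed below 0 under each scaling tried, from -1.58 to -0.45. Basal against luminal cells gave 0 of 19 higher, 10 lower and a median of -1.14. Both comparisons share the luminal cells.

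Of 12 genes named as NF-kB or ectodysplasin targets in ectodermal buds, 6 were measured against basal cells, 3 higher and 2 lower, and 7 against luminal cells, 3 higher and 2 lower. The medians were 1.03 and 0.13, and the second turned to -0.38 with median-of-ratios scaling and -0.34 with TMM. In the 50-cell wells the first turned to -0.07, with 2 higher and 2 lower, and the second was 2.89. Wnt10a, a Wnt ligand gene, stood at 35.6 CPM in the embryonic gate and was 5.83-fold above basal cells. Luminal cells had 0 reads of Wnt10a and Wnt10b. Set against the floor of 3 reads there, Wnt10a was 811.5-fold higher (lower limit 659.6). Wnt10b, at 11.8 CPM, was 268-fold higher than in luminal cells in the same way (lower limit 217.6). Fst, which encodes the activin antagonist follistatin, was 99.9-fold lower than in basal cells (5.75 against 575 CPM). Areg, an EGF receptor ligand gene, was 5.69-fold lower than in basal cells and 55.4-fold lower than in luminal cells, but without marked cells and cells nearest to another gate its log2 ratio to basal cells turned from -2.43 to 3.36. Cxcl10, a chemokine gene, was 2.78-fold lower than in luminal cells, and Icam1, an adhesion gene, stood at 119.9, 148.1 and 109.4 CPM.

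On the PTHrP side, 15 of 16 signal transduction genes were measured against basal cells, 1 higher and 4 lower (median 0.30), and 14 against luminal cells, 7 higher and 4 lower (median 0.85). The first median turned to -0.03 with median-of-ratios scaling and -0.01 with TMM, and with spike-ins, where 16 genes were measured, 11 were higher and 3 lower (median 1.72). Against luminal cells 3 genes were higher and 5 lower with median-of-ratios scaling (median 0.33) and with TMM (median 0.38). With spike-ins, 8 were higher and 4 lower there. Gnas, the gene of the G protein that couples PTH1R to adenylate cyclase, stood at 185.5 CPM in the embryonic, 115.3 in the basal and 90.3 in the luminal gate. Gnaq stood at 273, 187.5 and 112.6 CPM, and Prkar1a, a regulatory subunit of protein kinase A, at 271.5, 277 and 263 CPM. Creb1 was 4.25-fold higher than in luminal cells, and Prkacb was 1.56-fold lower than in basal cells.

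Of 7 mesenchymal genes of the PTHrP response, 6 were measured against basal cells, 4 higher and 1 lower (median 2.75), and 7 against luminal cells, 4 higher and 1 lower (median 1.15). With 0 adult reads set to the floor of 3, these medians were 4.70 and 1.33. Lef1, a transcription factor gene of Wnt signalling, stood at 158 CPM and was 210-fold above basal (155 to 293) and 216-fold above luminal cells. Bmp4 was 4.64-fold above basal and 185-fold above luminal cells. Msx2 was 2.65-fold lower than in luminal cells. Bmpr1a stood at 176, 148.5 and 112.6 CPM, and its log2 ratio to basal cells changed sign, from 0.24 to -0.09 with median-of-ratios scaling. Without the 22 cells with fibroblast markers, 4 genes of the list were measured against basal cells and the median fell to 0.96. The log2 ratio of Lef1 to basal cells did not fall without them, at 6.59 against 6.50 over all cells. That of Bmp4 went from 2.04 to 1.63.

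Among 5 protease genes of ligand processing, 1 was higher and 0 lower against basal cells (median 0.22, turning to -0.11 with median-of-ratios scaling) and 2 higher and 0 lower against luminal cells (median 0.87). The luminal comparison became 2 higher and 2 lower with median-of-ratios scaling (median 0.36) and with TMM (median 0.41). Its median was -0.49 in the 50-cell wells. Furin, whose product cleaves ectodysplasin from the cell surface, stood at 21.7, 17.03 and 34.7 CPM in the embryonic, basal and luminal gates. With spike-ins 5 of the 5 were higher against basal cells (median 1.52). Adam17 was 4.62-fold higher than in basal cells, Pcsk5 was 19.4-fold higher than in luminal cells, and Adam10 stood at 179, 221 and 343 CPM. Of the other ligand and receptor genes of the PTH1R family, Pth and Pth2 had 0 reads in all 3 gates, and Pth2r had 9 embryonic reads and 0 adult reads.

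**Figure D5:**
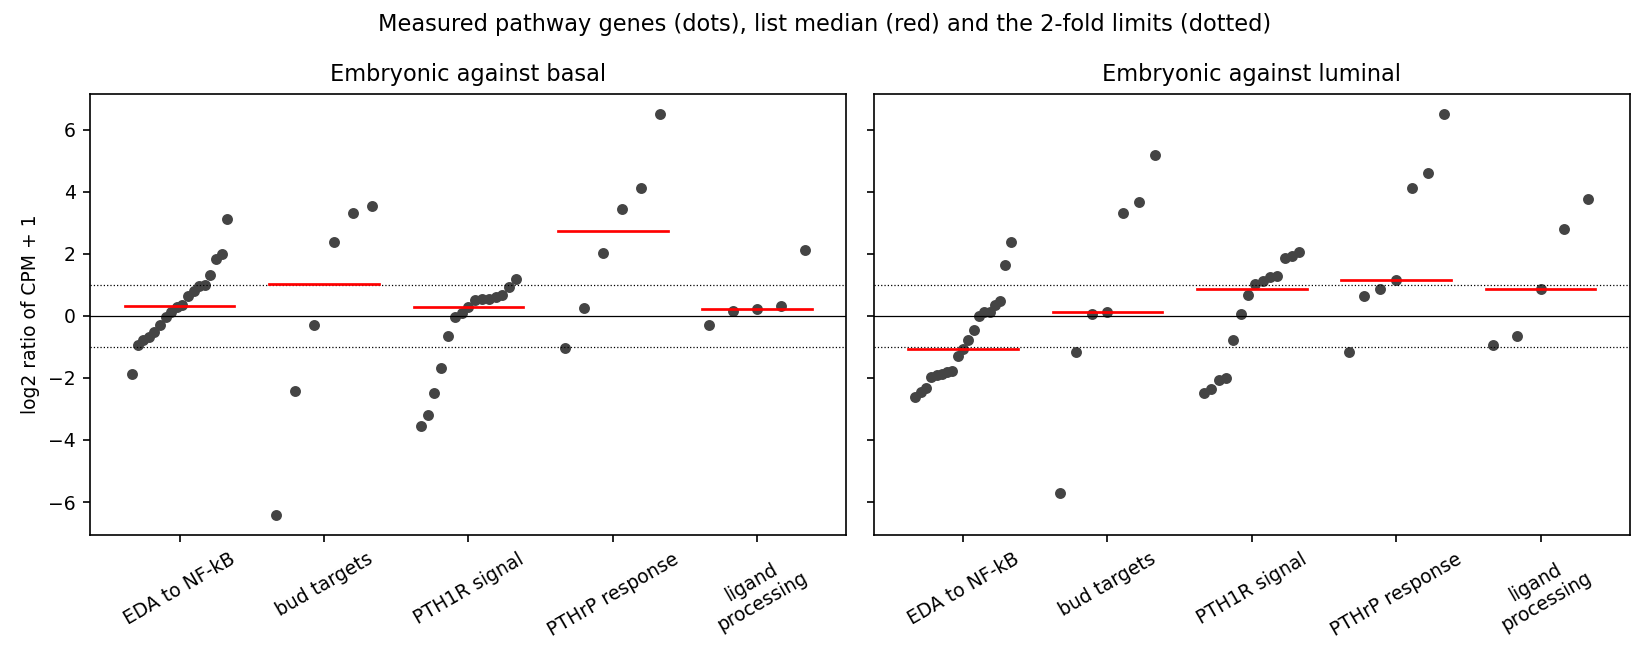
Log2 ratio of CPM + 1 of each measured gene (dots) of 5 lists downstream of or beside the 7 genes, embryonic against basal (left) and luminal (right), with the list median in red and dotted lines at 2-fold. The NF-kB list has a median of 0.32 against basal and -1.08 against luminal cells.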

How the data were processed

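The authors deposited raw read counts in 1 table, with 49585 genes and 92 spike-ins in rows and 384 wells in columns. The submitters' processing notes name cutadapt 1.13, STAR 2.5.2b, HTSeq 0.6.0 and the build GRCm38. The sources used here give neither the annotation nor the tools' options or strand mode. Per the labels' protocols, complementary DNA was primed with oligo-dT.

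Wells were grouped by their sort labels. One well has a title and a sort label that disagree and entered no group. It held 774060 reads and none of the 7 genes. Identifiers were matched to GENCODE M21, 43749 exactly and 5577 without the version, while 259 had no match. Pairs of wells with identical values were not found. No doublet caller was run.

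Cells with at least 50000 gene reads were kept, spike-ins aside. Reads were summed over the cells of a gate and scaled to CPM. To each CPM value 1 was added before log2 ratios were taken, with 5 CPM in either gate as the minimum and 2-fold as the limit of a call. Ratios have exact conditional Poisson intervals and shares exact Clopper-Pearson intervals (95%). The labels' protocols name no molecular identifiers, so amplified copies may be counted as separate reads and the intervals cover counting error only. The floor was 3 reads per gate or well. Cells were thinned to 50000 reads for shares. The ratio formula was tested on counts simulated from the summed basal profile, with planted changes larger than the 2-fold limit. That simulation had no spread between cells, so it says nothing of single cells that set a level.

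The 7 genes, the 6 pathway lists and the marker lists were chosen with earlier results of these data known. Named were all 7 genes, up to 4 measured genes of each list with the highest CPM, those past 2-fold against the list median where there were 3 or fewer, and up to 3 genes most correlated with each of the 7 (Spearman's rho of at least 0.4). The unmeasured Pth, Pth2 and Pth2r were named after their values were seen. A list gene and a correlated gene that the rule names are not reported here. Alternatives covered scaling, prior, minimum level, cell filters, left-out cells, plate rows and the 50-cell wells. Python 3.11.15, numpy 2.4.6, pandas 2.3.3, scipy 1.17.1 and, for TMM, edgeR 4.0.16 in R 4.3.3 were used.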

Additional observations from a re-analysis of the deposited data

How the results depend on the processing

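The count of 6 genes higher in the embryonic gate held under 4 scalings, the prior of 5 CPM and each cell filter tried. It was 5 in both comparisons at a minimum of 20 CPM, where Eda was not measured, and 5 against basal cells in shared plate rows. The count of lower genes was 0 except in the 50-cell wells, where it was 1 against basal and 1 against luminal cells (Eda2r, from 8 and 3 adult reads). In the main comparison with luminal cells the minimum level allowed no lower call. Between basal and luminal cells, 1 gene (Pthlh) was higher at a minimum of 20 CPM and 1 without the top cells. With no minimum level 3 genes were higher and 2 (Eda2r and Tnfrsf19) lower. In the 50-cell wells 2 were higher and 0 lower: Pthlh with 4 against 0 reads and Eda2r with 8 against 3. No called log2 ratio of embryonic to adult cells changed sign for the 6 measured genes. That of Eda2r, basal to luminal, was -1.07 with no minimum level and 1.11 in the 50-cell wells. Ratios to basal cells ran from 0.74 to 3.95 for Eda, 3.19 to 5.56 for Edar, 3.38 to 5.45 for Edaradd, 4.94 to 7.85 for Tnfrsf19, 3.39 to 6.16 for Pthlh and 1.85 to 5.28 for Pth1r.

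Scaling moved all genes together. The median log2 ratio of embryonic to basal cells was 0.38 and became 0.03 with median-of-ratios scaling, 0.04 with TMM and 1.76 with spike-ins, and the share of called genes that were higher went from 63.5% to 51.8%, 52.3% and 89.7%. Against luminal cells that share went from 69.1% to 52.3%, 54% and 81%, and from basal to luminal cells with spike-ins from 57% to 27.5%. Of the 62 genes in the pathway lists, 13 were higher and 8 lower against basal cells, which became 38 and 5 with spike-ins.

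Depth limits the shares of cells: 5 of 50000 reads left Edar in 15% and Eda in 3.94% of embryonic cells, and 5 of 200000 reads in 29.4% and 7.34% of those with at least 200000 reads. No paired analysis was possible because replicate numbers only name wells and each gate is 1 sample.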

Other observations

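Both adult gates held single cells with high levels of these genes among many without a read. In the basal gate 1 cell held 183 of 184 Eda reads and 210 of 378 Edaradd reads, and it was nearest to the basal 50-cell well. A different basal cell, also nearest to the basal well, held 862 of 1466 Pthlh reads. In the luminal gate 1 cell held the 75 Eda2r reads, 1 held 89 of 95 Tnfrsf19 reads and 1 held 50 of 51 Pth1r reads, and these 3 cells were nearest to the luminal well. These values come from single wells and have no replicate.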
